A study of Mus musculus with 8 samples.

Results

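G-protein-coupled receptors with orphan or nutrient-sensing names were examined in GFP-positive cells sorted from the gut of adult Ngn3-GFP mice. The set was every gene row of the expression table whose name was a numbered GPR or GPRC name, a free fatty acid receptor (Ffar), a sweet and umami taste receptor subunit (Tas1r) or the calcium-sensing receptor (Casr), which gave 85 of 18131 rows. In all, 66 of the 85 row names were current mouse symbols and 19 were older symbols. The current symbols are used here, with the older name given at first mention where it differs. The study profiled RNA on Illumina bead arrays from 3 groups. All came from Ngn3-GFP adult mice, where GFP is driven by the promoter of Neurog3, which encodes a factor that commits cells to an endocrine fate, and no other allele or treatment is given for them. The gastric cells came from the pyloric (antral) stomach (3 arrays), the duodenal cells from the duodenum (3 arrays) and the colonic cells from the colon (2 arrays). Stomach tissue was held in 10 mM EDTA for 2 h and then in Accutase for 30 min, whereas duodenum and colon were held in 10 mM EDTA for 30 min and then in dispase for 15 min, so dissociation and the stomach-to-intestine comparison cannot be told apart. Nothing in the labels says that arrays of a segment came from separate animals, so each p-value reflects the spread between arrays only, and that spread may be technical.

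Enteroendocrine cells sense the contents of the gut through receptors on their surface and release hormones in response. Free fatty acid receptors respond to fatty acids of short or long chain, class C receptors such as Casr, Gprc6a and the Tas1r subunits respond to calcium, amino acids or sugars, and other receptors respond to lactate, ketone bodies or protons. The ligand of many other receptors in the set is unknown or debated, and the large adhesion receptors are classed by their long extracellular region. Some rows carry a GPR name although the protein is a transporter, a channel or a trafficking factor, and these are described last.

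Values are log2 expression values as deposited. Because no detection p-values were given, 1075 olfactory receptor rows served as the background reference, and their 95th percentile of 6.81 is called the background level. Of the 85 receptor rows, 28 had a group mean above this level in gastric cells (32.9%, against 53.6% of all rows and 1.77% of olfactory receptor rows), 27 in duodenal cells (31.8%, against 53.2% and 4.93%) and 22 in colonic cells (25.9%, against 53.3% and 5.02%). Above it in at least 1 segment were 40 rows, and 15 of those lay within 0.2 log2 units of it. The other 45 rows had group means of 6.38 to 6.81 in every segment. Background readings also depend on the probe, and they do not show absence of a transcript. The SD between arrays of a segment had a median of 0.06 over the 85 rows and a highest value of 0.23. Endocrine markers differed strongly between the sorts. Of 12 genes, 11 were higher in gastric than in duodenal cells (21.3% of all rows). In duodenal cells 11 were higher than in colonic cells (15.1% of all rows). Their summed linear signal was 54106 to 56154 in gastric, 9664 to 10271 in duodenal and 3288 to 3384 in colonic arrays. The part of this gradient in the receptor results was not tested, and in bulk arrays fewer cells of a type and less RNA per cell cannot be told apart. Summed linear signals, here and below, have no background subtracted, so rows at background add to them too.

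**Figure D1:**
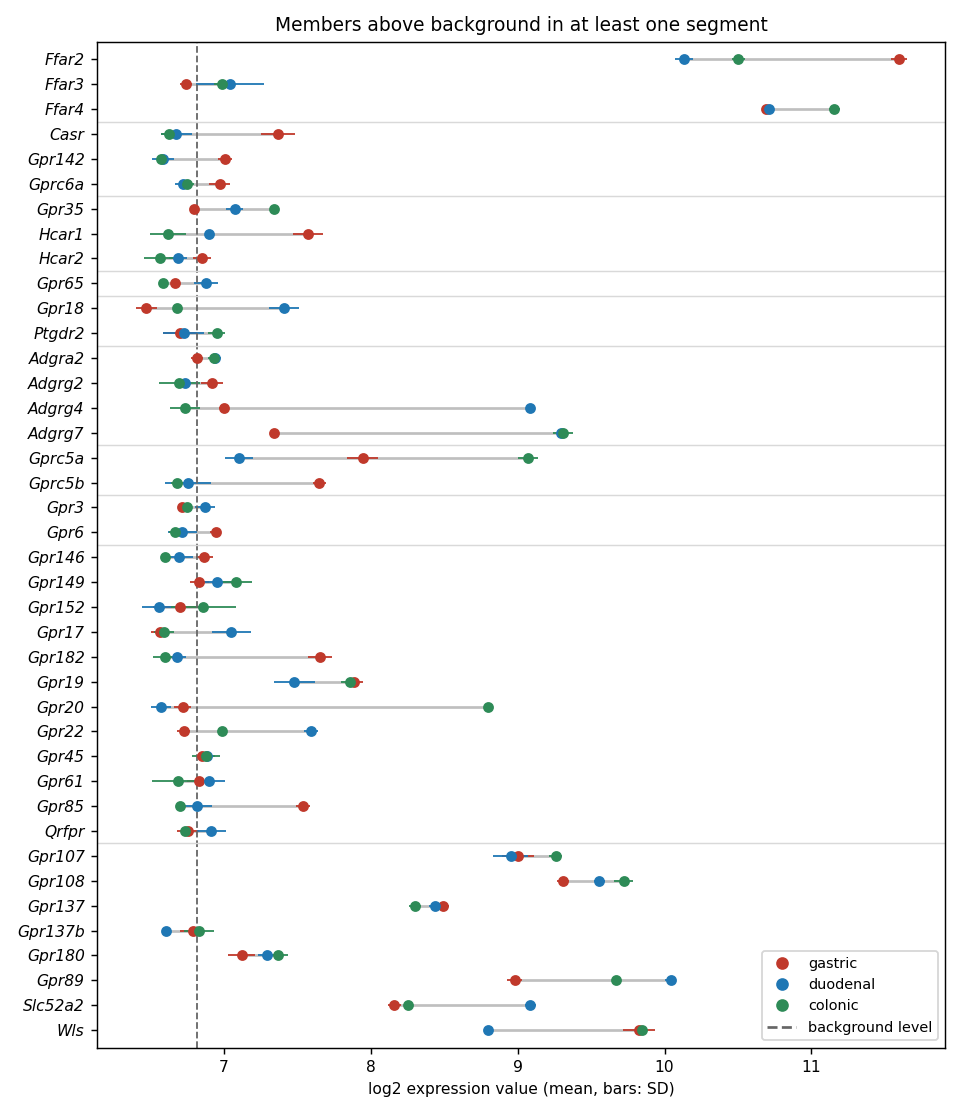
Mean log2 expression value (x axis, bars are SD over 3 gastric, 3 duodenal and 2 colonic arrays) of the 40 receptor rows above background in at least 1 segment, grouped by role from nutrient receptors at the top to GPR-named proteins of other kinds at the bottom. The dashed line is the background level of 6.81; Ffar2 and Ffar4 lie far above it in every segment, and 15 of the 40 rows never rise more than 0.2 above it.

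A receptor was counted as changed when its adjusted p in limma, fitted over all rows, was under 0.05 and at least 1 of the 2 group means was above background. Between gastric and duodenal cells 30 of 85 receptor rows changed (35.3%, against 43.9% of all rows), 15 higher in gastric cells (21.3% of all rows) and 15 lower (22.6% of all rows). Between gastric and colonic cells 26 changed (30.6%, against 41.8% of all rows), 14 higher (19% of all rows) and 12 lower in gastric cells (22.8% of all rows). Between duodenal and colonic cells 22 changed (25.9%, against 32.4% of all rows), 10 higher (15.1% of all rows) and 12 lower in duodenal cells (17.3% of all rows). An alternative added after the data were seen left out the 9 GPR-named proteins of other kinds. It gave 25, 21 and 16 changed rows of 76 (32.9%, 27.6% and 21.1%). The difference between these shares and those of all rows was not tested. The receptors' median log2 difference was -0.01, -0.01 and 0.03 in these comparisons, beside -0.01, -0.02 and -0.01 over all rows. Without the background condition the called rows were 35 (18 higher, 17 lower), 29 (16 higher, 13 lower) and 24 (12 higher, 12 lower), where all rows gave 46.6% (22.7% higher, 23.9% lower), 44.1% (20.2% higher, 23.9% lower) and 34.2% (16% higher, 18.2% lower). With a fitted difference of at least 2-fold, 5 rows passed between stomach and duodenum (2 higher, 3 lower), against 7.77% of all rows (4.07% higher, 3.7% lower). Between stomach and colon 5 passed (2 higher, 3 lower), against 7.41% of all rows (4.03% higher, 3.39% lower), and between duodenum and colon 4 passed (1 higher, 3 lower), against 3.56% of all rows (2.02% higher, 1.54% lower). These were Ffar2, Wls, Gpr89, Adgrg4 and Adgrg7 in the first comparison, Ffar2, Gpr182, Gprc5a, Adgrg7 and Gpr20 in the second, and Adgrg4, Wls, Gprc5a and Gpr20 in the third. The 3 comparisons share arrays, so they are not independent of each other.

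**Figure D2:**
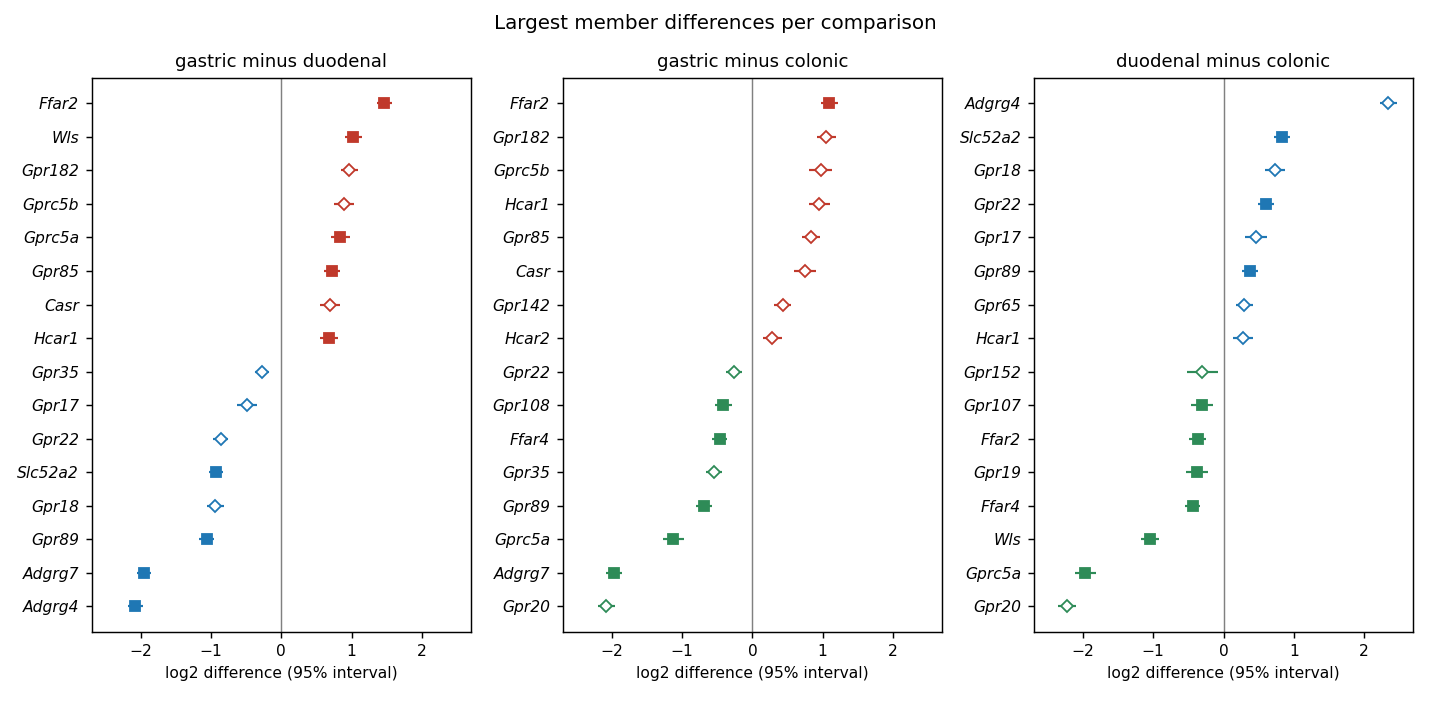
Log2 differences with 95% intervals (x axis) of up to 8 receptors in each direction per comparison, among those that changed with no overlap between arrays. Colours name the segment with the higher value, filled squares are ratios between means above background, and open diamonds are differences in which 1 group lay at background; Adgrg4, Adgrg7, Gpr20 and Gprc5a reach about 2 log2 units.

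Of the 6 fatty acid and lipid receptors, Ffar2 and Ffar4 gave strong signals in all segments and the other 4 lay at or near background. Ffar2, a receptor for short-chain fatty acids such as acetate and propionate, read 11.62, 11.53 and 11.63 in gastric arrays, 10.18, 10.16 and 10.06 in duodenal arrays and 10.47 and 10.53 in colonic arrays. No arrays of different segments overlapped, and the order was stomach, then colon, then duodenum. Gastric cells were 2.76-fold above duodenal cells (log2 difference 1.46, SE 0.05, adjusted p = 2.3e-12) and 2.14-fold above colonic cells (log2 difference 1.09, adjusted p = 3.24e-10), and colonic cells were 1.29-fold above duodenal cells (adjusted p = 9.76e-05). Ffar4 (row GPR120), a receptor for long-chain fatty acids, read 10.72, 10.67 and 10.68 in gastric, 10.70, 10.75 and 10.69 in duodenal and 11.18 and 11.13 in colonic arrays. Both colonic arrays lay above all 6 others, while gastric and duodenal arrays overlapped. Colonic cells were 1.38-fold above gastric (adjusted p = 1.62e-06) and 1.36-fold above duodenal cells (adjusted p = 5.26e-06). The gastric minus duodenal log2 difference of Ffar4 was -0.03 with a 95% interval of -0.12 to 0.07 (adjusted p = 0.707).

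Ffar3, which also binds short-chain fatty acids, and Ffar1, a long-chain fatty acid receptor, are encoded beside Ffar2 on chromosome 7, where Ffar2, Ffar3 and Ffar1 are consecutive protein-coding genes in the annotation. Unlike Ffar2, neither gave a strong signal. Ffar3 read 6.71, 6.74 and 6.79 in gastric, 7.20, 7.15 and 6.77 in duodenal and 6.95 and 7.02 in colonic arrays, so the third duodenal array lay among the gastric ones. Its gastric minus duodenal difference of -0.30 (adjusted p = 0.01) lost its call without duodenal replicate 1 (adjusted p = 0.0544) and without duodenal replicate 2 (adjusted p = 0.0532). Its gastric minus colonic difference of -0.24 was not called (adjusted p = 0.0563), but was called without duodenal replicate 3 (adjusted p = 0.00163) and without duodenal replicate 1 (adjusted p = 0.0345), arrays that enter this comparison only through the shared spread. Without duodenal replicate 3 the duodenal minus colonic difference was 0.19 (adjusted p = 0.0203). Ffar1 means were 6.78, 6.76 and 6.63 in gastric, duodenal and colonic cells, all under background, with a called gastric minus colonic difference of 0.16 (adjusted p = 0.04) that lay within the background range. Gpr119, a receptor for lipid amides known from gut L cells, had means of 6.73, 6.61 and 6.67, and Gpr84, a medium-chain fatty acid receptor of myeloid cells, had means of 6.62, 6.65 and 6.63.

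Casr, Gpr142 and Gprc6a had a group mean above background in gastric cells only, and the taste receptor subunits were at background. Under the background condition, a counted change of these 3 could therefore only be toward gastric cells. Of 6 rows in this role, 3 were higher in gastric than in duodenal cells and the same number higher in gastric than in colonic cells, with none lower, which is 50% of the role in each case, against 43.9% and 41.8% of all rows changed and 21.3% and 19% higher in gastric cells. With 6 rows, these shares say nothing particular of the role. Casr, which senses extracellular calcium, read 7.27, 7.50 and 7.33 in gastric, 6.78, 6.57 and 6.68 in duodenal and 6.59 and 6.66 in colonic arrays. Only the gastric arrays lay above background. Gastric cells were at least 1.47-fold above duodenal (log2 difference 0.69, SE 0.07, adjusted p = 3.04e-07) and at least 1.47-fold above colonic cells (log2 difference 0.75, SE 0.07, adjusted p = 5.45e-07). Gpr142, a receptor for aromatic amino acids such as tryptophan, read 7.06, 7.00 and 6.96 in gastric arrays and 6.52 to 6.66 in the other 5. Gastric cells were at least 1.14-fold above either intestinal group (adjusted p = 4.32e-06 against duodenal and 1.18e-05 against colonic cells). Gprc6a, which responds to basic amino acids, read 6.90, 6.98 and 7.04 in gastric and 6.66 to 6.78 in the other arrays, at least 1.11-fold higher (adjusted p = 0.000777 and 0.00456). Without colonic replicate 1 the second of these calls was lost (adjusted p = 0.0585). Tas1r1 and Tas1r3, which together form the umami receptor, and Tas1r2, which forms the sweet receptor with Tas1r3, had group means between 6.48 and 6.75, and none of their 9 differences was called. The largest of these was 0.08 with a 95% interval of -0.07 to 0.23, for Tas1r1 between duodenum and colon.

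**Figure D3:**
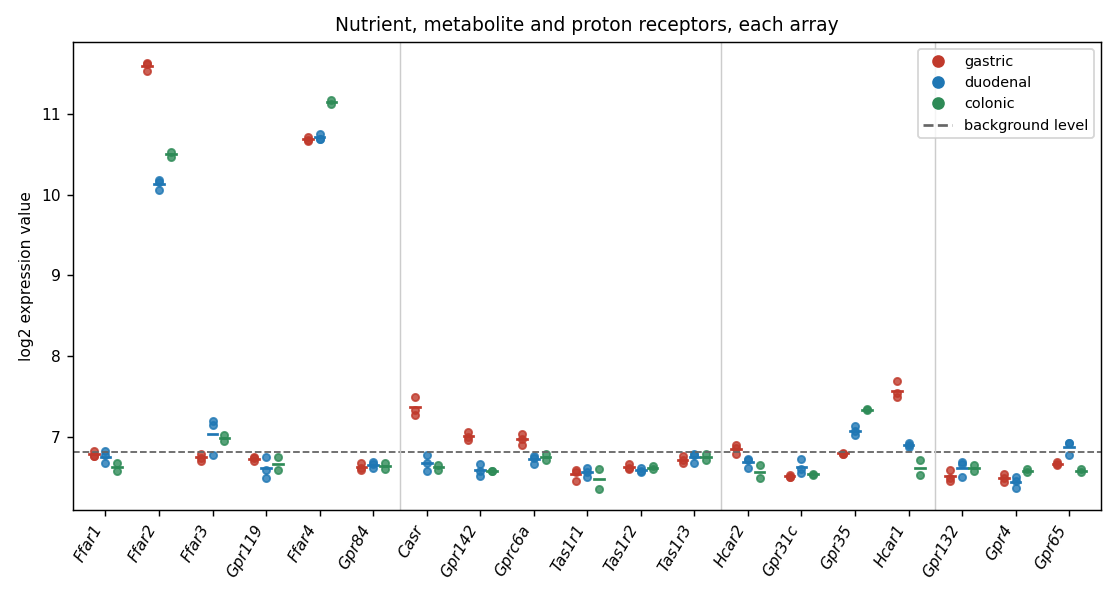
Log2 expression values (y axis) of the 19 receptors for fatty acids and lipids, for amino acids, calcium and taste, for other metabolites and for protons, in that order from left to right, 1 point per array with a bar at the group mean. The dashed line is the background level of 6.81. Ffar2 is highest in the 3 gastric arrays and Ffar4 in the 2 colonic arrays. Casr and Hcar1, with lower values than these, also have their highest readings in the gastric arrays.

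Among metabolite receptors, Hcar1 was highest in the stomach and Gpr35 highest in the colon. Hcar1 (row GPR81), the lactate receptor, read 7.54, 7.69 and 7.49 in gastric, 6.93, 6.90 and 6.87 in duodenal and 6.53 and 6.71 in colonic arrays. Gastric cells were 1.59-fold above duodenal cells (log2 difference 0.67, adjusted p = 1.61e-07) and at least 1.69-fold above colonic cells (log2 difference 0.95, adjusted p = 1.29e-08). The smaller duodenal minus colonic difference of 0.28 (adjusted p = 0.00408) lost its call without colonic replicate 1 (adjusted p = 0.0911). Its chromosome 5 neighbour Hcar2 (row GPR109A), a receptor for niacin and the ketone body beta-hydroxybutyrate, stayed near background, with gastric readings of 6.90, 6.78 and 6.87 and readings of 6.49 to 6.73 elsewhere. Gastric Hcar2 was at least 1.02-fold above both other groups (adjusted p = 0.0243 against duodenal and 0.00149 against colonic cells), and the duodenal comparison lost its call without gastric replicate 1 (adjusted p = 0.0948), without gastric replicate 3 (adjusted p = 0.0702) or without duodenal replicate 3 (adjusted p = 0.0987).

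Gpr35, a receptor for which kynurenic acid is a proposed ligand, read 6.79, 6.80 and 6.79 in gastric, 7.02, 7.13 and 7.07 in duodenal and 7.34 and 7.33 in colonic arrays, with no overlap between segments. Colonic cells were 1.2-fold above duodenal cells (adjusted p = 0.000831) and at least 1.44-fold above gastric cells (adjusted p = 3.9e-07), and duodenal cells were at least 1.2-fold above gastric cells (adjusted p = 0.000115). Gpr31c had group means of 6.51 to 6.63, all at background. Of the proton-sensing receptors, Gpr4 and Gpr132 were at background in every segment. Gpr65, the proton receptor of lymphoid cells, read 6.93, 6.78 and 6.92 in duodenal arrays, 6.65 to 6.68 in gastric and 6.57 and 6.60 in colonic arrays. That is at least 1.04-fold higher in duodenal cells (adjusted p = 0.00236 against gastric and 0.00068 against colonic cells).

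Among the adhesion receptors, Adgrg4 was highest in the duodenum and Adgrg7 was high in both intestinal segments. Adgrg4 (row GPR112), on the X chromosome, read 9.07, 9.10 and 9.08 in duodenal, 7.03, 6.96 and 7.01 in gastric and 6.81 and 6.66 in colonic arrays. Duodenal cells were 4.23-fold above gastric cells (log2 difference -2.08 for gastric minus duodenal, SE 0.05, adjusted p = 2.8e-14) and at least 4.81-fold above colonic cells (log2 difference 2.35, SE 0.05, adjusted p = 7.01e-14). Adgrg7 (row GPR128), an adhesion receptor known from mouse intestinal epithelium, read 7.34, 7.36 and 7.32 in gastric, 9.31, 9.27 and 9.30 in duodenal and 9.36 and 9.26 in colonic arrays. All 5 intestinal arrays lay far above the 3 gastric ones. Adgrg7 was 3.88-fold higher in duodenal (adjusted p = 2.68e-14) and 3.91-fold higher in colonic than in gastric cells (adjusted p = 1.05e-13), while duodenal and colonic cells differed by -0.01 with a 95% interval of -0.12 to 0.10 (adjusted p = 0.878).

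Of the 10 adhesion receptor rows, only these and Adgrg2 and Adgra2 (rows GPR64 and GPR124) had a group mean above background. Adgrg2 means were 6.92, 6.73 and 6.69 and Adgra2 means 6.82, 6.94 and 6.93 in gastric, duodenal and colonic cells. The other 6 rows, among them Adgrg1 (row GPR56) and Adgrf1 (row GPR110), stayed at background. The 3 changes between stomach and duodenum that favoured the duodenum were Adgrg4, Adgrg7 and Adgra2, and the 1 that favoured the stomach was Adgrg2. Between stomach and colon 2 were higher and 1 lower in gastric cells, and between duodenum and colon 1 was higher in duodenal cells. The role was thus called in 40%, 30% and 10% of its rows, against 43.9%, 41.8% and 32.4% of all rows.

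The 250 bases before the annotated start of Adgrg4 and Adgrg7, receptors with a regional step of about 2 log2 units, and of Ffar4, which read high in all segments, are shown from RefSeq, 5′ to 3′ on the gene's strand. Capitals mark matches on either strand to 3 short motifs. The first, TTTATG, resembles sites of caudal homeobox factors. The second, GTTAAT, is part of the HNF1 site, and the third, AGATAA, resembles sites of GATA factors. No 2 of these matches overlap.
Adgrg4 (GRCm38.p6, chrX:56893984-56894233, plus strand): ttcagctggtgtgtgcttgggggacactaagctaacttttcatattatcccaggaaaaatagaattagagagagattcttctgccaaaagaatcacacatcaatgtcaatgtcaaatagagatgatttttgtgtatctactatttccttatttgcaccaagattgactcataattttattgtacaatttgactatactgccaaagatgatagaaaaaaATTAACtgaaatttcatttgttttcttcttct
Adgrg7 (GRCm38.p6, chr16:56795859-56796108, minus strand): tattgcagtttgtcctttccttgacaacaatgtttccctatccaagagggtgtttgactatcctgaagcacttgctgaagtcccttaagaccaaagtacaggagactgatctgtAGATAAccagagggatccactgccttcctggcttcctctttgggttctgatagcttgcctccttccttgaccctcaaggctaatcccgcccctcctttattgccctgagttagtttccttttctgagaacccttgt
Ffar4 (GRCm38.p6, chr19:38096829-38097078, plus strand): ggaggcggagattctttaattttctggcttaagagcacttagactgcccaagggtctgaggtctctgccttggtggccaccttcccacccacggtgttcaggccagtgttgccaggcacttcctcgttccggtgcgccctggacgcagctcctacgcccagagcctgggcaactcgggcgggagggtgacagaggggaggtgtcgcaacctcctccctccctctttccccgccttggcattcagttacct
Adgrg4 held 1 match, to GTTAAT on the opposite strand, whose first base lay 32 bases before the start. Adgrg7 held 1 match, to AGATAA on its own strand, 136 bases before the start, and Ffar4 held none. Over 32851 promoters of the same length, 10.8% held the caudal-type motif, 6.43% the HNF1-type motif and 9.99% the GATA-type motif on either strand. The GC content was 31.6% for Adgrg4, 47.2% for Adgrg7 and 61.2% for Ffar4, beside a median of 52.4% over all promoters, and the windows held 0, 1 and 11 CpG dinucleotides, beside a median of 6. The window of Casr, a receptor higher in gastric cells, was also read and is not shown. It held no match, with a GC content of 48.8% and 1 CpG dinucleotide. The matches describe letters and are not evidence of binding. In all, 61 of the 85 receptor genes had a promoter in the table, and Gpr20, Gprc5a and Gpr182, which also differed by segment, had none.

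The class C orphans Gprc5a and Gprc5b differed by segment in different ways. Gprc5a, a retinoic acid-inducible receptor of epithelia, read 8.04, 7.96 and 7.83 in gastric, 7.10, 7.20 and 7.01 in duodenal and 9.12 and 9.02 in colonic arrays, with no overlap. Colonic cells were 3.91-fold above duodenal cells (log2 difference -1.97 for duodenal minus colonic, SE 0.07, adjusted p = 9.23e-12) and 2.18-fold above gastric cells (adjusted p = 2.92e-09), and gastric cells were 1.79-fold above duodenal cells (adjusted p = 1.99e-08). Gprc5b, its paralogue, read 7.60, 7.69 and 7.66 in gastric, 6.92, 6.73 and 6.61 in duodenal and 6.71 and 6.65 in colonic arrays. Gastric cells were at least 1.74-fold above duodenal (adjusted p = 1.97e-08) and at least 1.78-fold above colonic cells (adjusted p = 3.32e-08). Gprc5c and Gpr158 were at background in all segments. Of the receptors that raise cAMP without a known ligand, Gpr12 was at background, Gpr3 had a highest mean of 6.87 in duodenal cells and Gpr6 a highest mean of 6.94 in gastric cells.

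Of the 33 rows placed in no other role, not all of them orphans, 12 had a group mean above background in some segment. Gpr20, an orphan that couples to inhibitory G proteins, was seen in colonic arrays alone, at 8.80 in both, against 6.78, 6.71 and 6.66 in gastric and 6.63, 6.58 and 6.50 in duodenal arrays. Colonic cells were at least 3.96-fold above each other group (adjusted p = 1.82e-13 against gastric and 1.99e-13 against duodenal cells). Gpr22, an orphan known from brain and heart, was highest in duodenal arrays, at 7.56, 7.64 and 7.57, with 6.98 and 7.00 in colonic and 6.74, 6.67 and 6.76 in gastric arrays. Duodenal cells were at least 1.71-fold above gastric cells (adjusted p = 5.01e-10) and 1.52-fold above colonic cells (adjusted p = 2.99e-07), and colonic cells were at least 1.13-fold above gastric cells (adjusted p = 0.00067). Gpr17, known from oligodendrocyte precursors, read 7.20, 6.97 and 6.98 in duodenal arrays and 6.49 to 6.64 elsewhere, at least 1.18-fold higher (adjusted p = 1.09e-05 against gastric and 0.000119 against colonic cells).

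Gastric arrays had the highest readings of Gpr182 and Gpr85. Gpr182, known from endothelium, where it takes up chemokines, read 7.69, 7.71 and 7.56 in gastric arrays and 6.54 to 6.72 in the other 5. It was at least 1.79-fold above both intestinal groups (adjusted p = 1.06e-09 and 1.87e-09). Endothelial markers do not give a clear level here: Pecam1 read 7.00, 7.00 and 7.02 in gastric arrays and 6.59 to 6.79 elsewhere, while Cdh5 was under background in every segment. Of the 6 stromal, endothelial and glial markers, 2 were higher in gastric than in duodenal cells (21.3% of all rows) and none lower. Their summed linear signal was 659 to 681 in gastric, 582 to 600 in duodenal and 606 to 610 in colonic arrays. Above background were 2 of them in gastric, 0 in duodenal and 1 in colonic cells, so the duodenal sum comes from rows at background alone. The part of these markers in the Gpr182 result was not tested. Gpr85, an orphan known from brain, read 7.55, 7.48 and 7.58 in gastric, 6.71, 6.83 and 6.91 in duodenal and 6.71 and 6.69 in colonic arrays, 1.65-fold above duodenal (adjusted p = 2.65e-08) and at least 1.65-fold above colonic cells (adjusted p = 2.05e-08).

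Gpr19, an orphan known from brain, was above background in all 8 arrays. It read 7.90, 7.81 and 7.93 in gastric, 7.32, 7.57 and 7.54 in duodenal and 7.90 and 7.81 in colonic arrays, so duodenal cells were lowest (1.32-fold under gastric cells, adjusted p = 7.89e-05, and 1.3-fold under colonic cells, adjusted p = 0.000728). Gpr152 had a colonic mean of 6.86 with arrays at 7.02 and 6.70. Its duodenal minus colonic difference of -0.30 (adjusted p = 0.0354) lost its call without colonic replicate 1 (adjusted p = 0.428), without duodenal replicate 2 (adjusted p = 0.0685) or without duodenal replicate 3 (adjusted p = 0.12). The remaining 5 rows above background (Gpr146, Gpr149, Gpr45, Gpr61 and Qrfpr, row GPR103) had group means of at most 7.08. Gpr146 had a second row under another name, and the rows disagreed: gastric minus colonic was 0.26 (adjusted p = 0.00236) in the first and -0.14 (adjusted p = 0.112) in the second.

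Receptors of lymphoid and myeloid cells gave a duodenal signal for Gpr18. This receptor, needed in mice for a normal number of some intraepithelial T cells, read 7.29, 7.45 and 7.49 in duodenal, 6.47, 6.40 and 6.54 in gastric and 6.66 and 6.70 in colonic arrays, and was at least 1.51-fold higher in duodenal cells than in either other group (adjusted p = 2.03e-09 and 3.13e-07). Gpr171, known from T cells, had its highest mean, 6.81, in duodenal cells and did not pass background. Gpr174, Gpr34, C5ar2 (row GPR77) and Gpr1 were under background in every segment. Ptgdr2 (row GPR44), a prostaglandin D2 receptor of T helper cells, had means of 6.70, 6.73 and 6.95 in gastric, duodenal and colonic cells. Unlike Gpr18, it was counted as higher in colonic cells than in each other group. Of these 7 receptors, 14.3%, 14.3% and 28.6% changed in the 3 comparisons, against 43.9%, 41.8% and 32.4% of all rows. Of 11 T cell marker genes, 7 were lower in gastric than in duodenal cells (22.6% of all rows). In duodenal cells 6 were higher than in colonic cells (15.1% of all rows), and none went the other way in either comparison. Unlike Gpr18 and Gpr65, the marker Lck was as high in colonic as in duodenal cells, at 7.78 and 7.77, against 7.05 in gastric cells. The summed linear signal of the 11 genes was 1117 to 1147 in gastric, 3141 to 3218 in duodenal and 1203 to 1234 in colonic arrays. Only 1 of them was above background in gastric, 7 in duodenal and 2 in colonic cells. The gastric and colonic sums thus come largely from rows at background, and their ratios to the duodenal sum do not measure the contrast. Cd3g stood at 8.85 and Ccl5 at 10.23 in duodenal cells, while Ptprc, Cd2, Cd8a and Gzmb were under background in every segment. Of 7 myeloid genes, 3 were lower in gastric than in duodenal cells (22.6% of all rows). In duodenal cells 2 were higher (15.1% of all rows) and 2 lower (17.3% of all rows) than in colonic cells. Their summed linear signal was 944 to 959 in gastric, 1273 to 1334 in duodenal and 2324 to 2463 in colonic arrays. Fcer1g, an adaptor of Fc receptors, stood at 8.32 in duodenal, 6.85 in gastric and 6.62 in colonic cells, and Tyrobp, an adaptor of myeloid and natural killer cells, at 7.29, 6.69 and 6.74. Cd14, a receptor for bacterial lipopolysaccharide, was highest in colonic cells at 10.78, against 8.71 in duodenal and 8.34 in gastric cells, while Csf1r, Itgam and Adgre1 were under background in every segment. The part of T cells and myeloid cells in the Gpr18 and Gpr65 results was not tested.

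**Figure D4:**
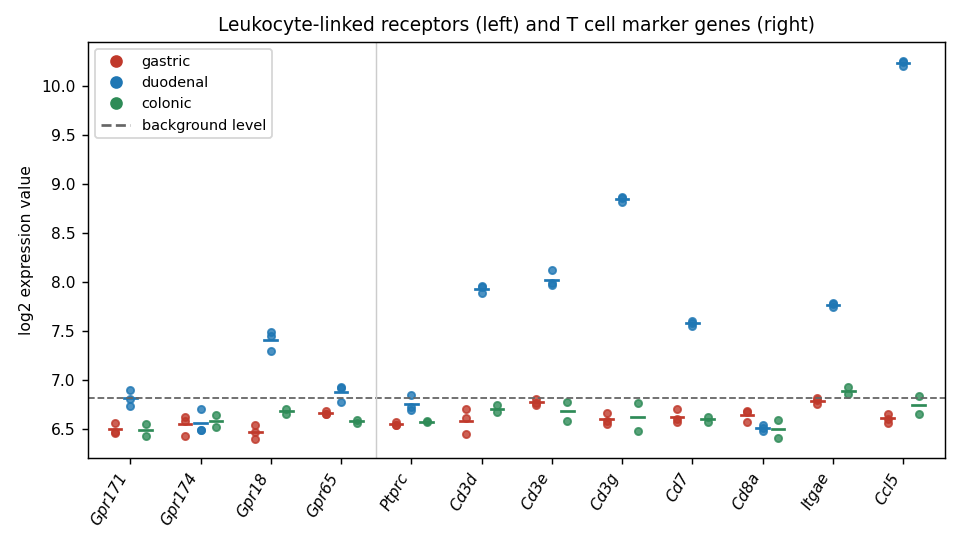
Log2 expression values (y axis) of 4 receptors known from leukocytes, on the left, and 8 of 11 T cell marker genes, on the right. Each point is 1 array, bars are group means and the dashed line is the background level of 6.81. Lck, high in duodenal and colonic cells, is not among the 8, and Ptgdr2, highest in colonic cells, is not among the 4. Gpr18 and the markers Cd3d, Cd3e, Cd3g, Cd7, Itgae and Ccl5 are highest in the 3 duodenal arrays, whereas Gpr174, Cd8a and Ptprc stay near background.

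Of 9 rows with a GPR name outside the classical receptor families, 8 were above background in some segment and 5, 5 and 6 of them changed in the 3 comparisons (55.6%, 55.6% and 66.7% of the 9, against 43.9%, 41.8% and 32.4% of all rows). Wls (row GPR177), the cargo receptor that carries Wnt proteins to the cell surface, read 9.71, 9.83 and 9.94 in gastric, 8.81, 8.79 and 8.80 in duodenal and 9.83 and 9.86 in colonic arrays. Duodenal cells were lowest, 2.03-fold under gastric cells (adjusted p = 4.21e-10) and 2.07-fold under colonic cells (adjusted p = 3.1e-09), while gastric and colonic cells differed by -0.02 with a 95% interval of -0.15 to 0.11 (adjusted p = 0.814). Gpr89, a Golgi anion channel, read 8.97, 8.93 and 9.03 in gastric, 10.06, 10.00 and 10.07 in duodenal and 9.65 and 9.69 in colonic arrays. It was 2.09-fold higher in duodenal than in gastric cells (adjusted p = 4.38e-11), 1.61-fold higher in colonic than in gastric cells (adjusted p = 3.28e-08) and 1.3-fold higher in duodenal than in colonic cells (adjusted p = 4.24e-05). Slc52a2 (row GPR172B), a riboflavin transporter, read 9.07, 9.05 and 9.13 in duodenal arrays and 8.13 to 8.26 in the other 5. Duodenal cells were 1.9-fold above gastric (adjusted p = 1.73e-10) and 1.78-fold above colonic cells (adjusted p = 5.85e-09).

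Smaller differences were seen for the trafficking proteins Gpr107 and Gpr108. Gpr108 means were 9.31, 9.56 and 9.72 in gastric, duodenal and colonic cells, so gastric cells were 1.19-fold under duodenal (adjusted p = 0.000499) and 1.33-fold under colonic cells (adjusted p = 1.16e-05). The duodenal minus colonic difference of Gpr108 of -0.17 (adjusted p = 0.0258) lost its call without duodenal replicate 1 (adjusted p = 0.0737), without duodenal replicate 2 (adjusted p = 0.0689) or without colonic replicate 2 (adjusted p = 0.221). Gpr107 was highest in colonic cells (9.26, against 9.00 in gastric and 8.95 in duodenal cells), 1.2-fold above gastric cells (adjusted p = 0.0104, and 0.0836 without colonic replicate 2) and 1.24-fold above duodenal cells (adjusted p = 0.00447). The other rows above background were Gpr137, Gpr137b and Gpr180, with means of 8.30 to 8.49, 6.60 to 6.83 and 7.12 to 7.37, and Gpr155 lay under background.

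Genes that relay receptor signals were read beside the receptors. Of 45 measured genes for G proteins, phospholipases, adenylyl cyclases and related steps, 19 were higher and 7 lower in gastric than in duodenal cells, 17 higher and 10 lower in gastric than in colonic cells, and 13 higher and 7 lower in duodenal than in colonic cells. That is 57.8%, 60% and 44.4% of the list, against 43.9%, 41.8% and 32.4% of all rows, a difference that was not tested. Their median log2 differences were 0.09, 0.03 and 0.01, beside -0.01, -0.02 and -0.01 over all rows. Gnaz, an inhibitory G protein alpha subunit, stood at 10.21 ± 0.05 (SD, n = 3) in gastric, 7.21 ± 0.03 (SD, n = 3) in duodenal and 7.00 ± 0.10 (SD, n = 2) in colonic cells, 7.99-fold above duodenal (adjusted p = 6.92e-16) and 9.22-fold above colonic cells (adjusted p = 1.2e-15). Gna14, an alpha subunit of the Gq family, was highest in colonic cells at 9.76 ± 0.09 (SD, n = 2), lower in gastric cells at 8.29 ± 0.07 (SD, n = 3) and at background in duodenal cells, at least 7.69-fold under the colon (adjusted p = 7.39e-15). Itpr1, an inositol trisphosphate receptor of the endoplasmic reticulum, was 4.66-fold above duodenal (adjusted p = 4.63e-14) and 2.93-fold above colonic cells (adjusted p = 1.38e-11) in gastric cells.

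Sensors for related ligands that carry other names were also read. Of 14 listed names, some belong to Hcar1, Hcar2 and Ffar4, which are described above under their older row names. Of the others, 9 had a row. Between stomach and duodenum 1 was higher and 3 lower in gastric cells, between stomach and colon likewise 1 was higher and 3 lower, and between duodenum and colon 2 were higher and 1 lower in duodenal cells. These counts are 44.4%, 44.4% and 33.3% of the 9, near the 43.9%, 41.8% and 32.4% of all rows. P2ry1, an ADP receptor, stood at 9.88 ± 0.04 (SD, n = 3) in duodenal, 8.63 ± 0.07 (SD, n = 2) in colonic and 7.03 ± 0.05 (SD, n = 3) in gastric cells, 7.21-fold higher in duodenal than in gastric cells (adjusted p = 9.68e-16). P2ry6, a UDP receptor, was highest in colonic cells at 10.21 ± 0.03 (SD, n = 2), 6.8-fold above gastric (adjusted p = 2.87e-14) and 3.41-fold above duodenal cells (adjusted p = 1.19e-11). Sucnr1, the succinate receptor, was seen in gastric cells at 8.13 ± 0.07 (SD, n = 3), at least 2.46-fold above duodenal (adjusted p = 1.14e-11) and at least 2.49-fold above colonic cells (adjusted p = 6.47e-12). The bile acid receptor Gpbar1 read 6.44 to 6.74 over the 8 arrays, under background.

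Markers of other epithelial cells differed between the sorts as well. For scale, 21.3% of all rows were higher and 22.6% lower in gastric than in duodenal cells. Against colonic cells, 19% were higher and 22.8% lower in gastric cells, and 15.1% higher and 17.3% lower in duodenal cells. All 5 gastric mucous cell genes and all 4 chief and parietal cell genes were higher in gastric than in duodenal and than in colonic cells. In gastric arrays the summed linear signal was 104060 to 105307 for the mucous genes and 70245 to 71431 for the chief and parietal genes. That of the 12 endocrine genes was 54106 to 56154 there. Sums of different lists cover different genes and probes, so they cannot rank the cell types by their RNA. Tuft cell genes were lower in gastric than in duodenal cells for 8 of 10 and higher for 1, and higher in duodenal than in colonic cells for 9 of 10, with a summed linear signal of 3453 to 3598 in gastric, 3957 to 4083 in duodenal and 1328 to 1336 in colonic arrays. Of 5 goblet cell genes, 4 were lower in gastric than in duodenal and than in colonic cells. Between duodenum and colon, 2 were higher and 1, Agr2, lower in duodenal cells. The summed linear signal of the 5 genes was 122605 to 127946 in duodenal, 89633 to 94391 in colonic and 63436 to 64536 in gastric arrays. All 4 Paneth cell genes were lower in gastric cells in both comparisons. Between duodenum and colon, 3 of them were higher and 1, Mmp7, lower in duodenal cells. Their summed linear signal was 32600 to 35395 in duodenal and 20868 to 21741 in colonic arrays. Enterocyte genes were lower in gastric than in duodenal cells for 2 of 3, with a summed linear signal of 24526 to 24953 in duodenal, 2096 to 2282 in gastric and 525 to 543 in colonic arrays. All 3 colonocyte genes were lower in gastric cells in both comparisons, while only Aqp8 differed between colonic and duodenal cells, at 8.58 and 7.28. Slc26a3 stood at 6.89 and 7.00 and Car4 at 10.51 and 10.45 in colonic and duodenal cells. The part of these cells in the regional patterns of Adgrg7, Adgrg4, Gprc5a, Gpr20 and the other receptors was not tested.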

How the data were processed

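The deposited values were log2 expression values, 1 row per gene name for 8 Illumina bead arrays. Values ran from 6.22 to 15.49, from which base 2 was assumed, since no source used here states it. Per the submitters' processing notes the authors used GenomeStudio, lumi and limma (no versions named). Sorted columns differed by at most 0.0043, as after quantile normalization. The joining of probes into gene rows is not stated. Names came from the GRCm38.p6 RefSeq annotation, which also gave the promoters.

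A linear model with a mean per segment was fitted to all 18131 rows and 8 arrays with limma 3.58.1 in R 4.3.3, with empirical Bayes moderation and Benjamini-Hochberg adjustment over all rows. Where the lower group was under the background level of 6.81, the ratio is a bound, with each array of that group raised to at least 6.81. The fit was also run on simulated data with 200 changed genes per comparison (50 of each size) and independent noise of the spread that the fit had estimated. At 1.25-fold 100%, 90% and 92% were recovered for gastric against duodenal, gastric against colonic and duodenal against colonic cells. Of the calls, 6.54%, 3.47% and 6.67% were unchanged genes. Far fewer rows changed there than were called in the real arrays, and spread between animals was not simulated, so these rates do not carry over to the calls above. Precision is limited by the number of arrays, with 2 for the colon. Named receptors were up to 8 per direction and comparison with the largest differences among changed rows with no overlap of arrays, all receptors for fatty acids, amino acids, metabolites and protons, and the 6 rows with the highest mean; from the other lists, the 3 genes with the largest differences. Other names were chosen after their values were seen. The members and lists were chosen with earlier results of these data known. Deviations of same-numbered arrays from their segment means had correlations of -0.014 to 0.013. This cannot decide whether the numbers mark a shared animal or day, because deviations from a mean of so few arrays are tied to each other. Tables and plots were made in Python 3.11.15 (pandas 2.3.3, numpy 2.4.6, matplotlib 3.10.9).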

Additional observations from a re-analysis of the deposited data

How the results depend on the processing

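Counts of receptors with an adjusted p under 0.05 in limma, without the background condition, were 35 (gastric against duodenal), 29 (gastric against colonic) and 24 (duodenal against colonic). They fell to 5, 5 and 4 with at least 2-fold, and the first fell to 22 when rows with a mean under background were left out, which also leaves fewer rows to call. Leaving out single arrays gave 28 to 35, 24 to 31 and 18 to 28. With the replicate number as a replicate block the counts were 35, 28 and 24, and the block changed no call of a named receptor. Without GPR-named proteins of other kinds, an alternative added after the data were seen, they were 29, 24 and 18. At the 99th percentile of olfactory receptor rows, 20 gastric, 18 duodenal and 17 colonic means were above background in place of 28, 27 and 22. Of 970 repeats of 70 differences of named receptors under up to 14 alternatives, 948 kept their side of the threshold, 14 lost the call, 8 gained it and none of the called ones reversed. Ffar3 gained the gastric against colonic call when dim rows were left out (adjusted p = 0.0328) and with only the compared groups (adjusted p = 0.00267).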
